A study of Eriocheir sinensis with 6 samples.

Results

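FMRFaR, SSTR2 and HTR4 are 3 of the 28671 genes measured in muscle of the Chinese mitten crab (Eriocheir sinensis). They were picked by identifier, as the neuropeptide and amine type members among the receptors that the study names. FMRFaR is the gene model evm.TU.CM024127.1.244, SSTR2 is evm.TU.CM024152.1.288 and HTR4 is evm.TU.CM024104.1.157. The names are the study's own, and no name could be checked here against a protein sequence. The study drew its receptors from comparisons between molting stages, which for FMRFaR include these inter-molt libraries, so its level here is a description.

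The libraries were 3 RNA-seq and 3 ATAC-seq libraries of muscle from 3 wild-type, untreated crabs at the inter-molt stage, numbered crab 1, crab 2 and crab 3, with the muscle of each crab divided between both assays. Every library is of 1 tissue and 1 stage, so that there is no second group, and the values below are levels and positions and not responses. The labelled tissue was not checked against markers, since no gene name stands beside any identifier in the tables. The RNA libraries held between 6772294 and 7920094 reads assigned to genes, and the ATAC libraries between 49574 and 57320 peaks.

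G protein-coupled receptors cross the cell membrane several times and pass the binding of an outside ligand to G proteins inside the cell, which raise or lower second messengers such as cyclic AMP and calcium. In insects the FMRFamide receptor binds short peptides ending in Phe-Met-Arg-Phe-amide and related peptides, and such peptides act on arthropod muscle and on the nerve endings that drive it. In mammals SSTR2 is a receptor of the peptide hormone somatostatin and acts through inhibitory G proteins that lower cyclic AMP. In mammals HTR4 is a receptor of the amine serotonin and acts through stimulatory G proteins that raise cyclic AMP.

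The designed oligonucleotides that stand for these genes in the study are its RT-qPCR primers, which exist for FMRFaR and SSTR2 and are shown because they are the only sequence of either crab gene held here. Each has 20 bases and is written 5′ to 3′ in lower case throughout, since no base was singled out.
FMRFaR forward primer: ttactgttgtgtccgccagg
FMRFaR reverse primer: atgaaggcgagcacgttaca
SSTR2 forward primer: gcgaaggagtagcggatgaa
SSTR2 reverse primer: tctccaaactggtgtcgctc
The G and C content was 55% in both SSTR2 primers and in the FMRFaR forward primer, and 50% in the FMRFaR reverse primer. Their positions within the gene models were not determined.

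The genes differ in their layout on the assembly used by the authors, whose sequences carry CM names. FMRFaR lies at CM024127.1:6277784-6280715 on the plus strand, a span of 2932 bases for a model length of 1248 bases, so that the rest of the span is intron. SSTR2 lies at CM024152.1:8660497-8662106 on the minus strand, where the span and the model length are both 1610 bases, a gene model without an intron. HTR4 lies at CM024104.1:6324039-6377507 on the plus strand and spreads a model length of 1877 bases over 53469 bases. The model start is taken as the transcription start site (TSS) below, but in 73.3% of the EVM models the length is a multiple of 3, against 31.6% of the loci added by the authors. Such a model may hold coding sequence alone, and the FMRFaR length of 1248 bases is one of these multiples, so its TSS may lie further upstream.

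FMRFaR was the most highly expressed of the 3 genes. It had 4.10, 4.42 and 3.09 FPKM (fragments per kilobase of gene model, scaled to the library size used by the authors) in crabs 1, 2 and 3, which rest on 36, 52 and 15 recovered reads. The exact Poisson 95% intervals, which cover counting error only here and throughout, were 2.87 to 5.68, 3.30 to 5.80 and 1.73 to 5.10 FPKM and overlap one another. The mean was 3.87 ± 0.696 FPKM (SD, n = 3), which places the gene at percentile 75.2 of all 28671 genes.

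The distance of crab 3 from the other crabs for FMRFaR depended on the library size used for scaling, while the order, crab 2 highest and crab 3 lowest, was the same on each scale. The library sizes behind the authors' values were 1.04, 1.27 and 0.491 times the assigned reads in crabs 1, 2 and 3. Scaled to the assigned reads instead, FMRFaR had 4.26, 5.64 and 1.52 FPKM, with intervals of 2.98 to 5.90, 4.21 to 7.39 and 0.849 to 2.50. On that scale crab 3 lay below the other crabs with no overlap of the intervals, and with median-ratio scaling the values were 3.42, 3.68 and 2.90 FPKM, close together as in the deposited table. The range between crabs was 0.41 on the log2(FPKM + 1) scale of the deposited values. Among genes with a mean of at least 1 FPKM, 14.4% (1770 of 12319) ranged over at least 2 on that scale, and FMRFaR was not among them.

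SSTR2 had low levels with a wide spread between crabs. It had 1.86, 0.725 and 0.160 FPKM in crabs 1, 2 and 3, from 21, 11 and 1 reads. The intervals were 1.15 to 2.84, 0.362 to 1.30 and 0.00404 to 0.890 FPKM. Crab 1 was higher than crab 3 by more than counting error, while the interval of crab 2 overlaps both. The mean was 0.914 ± 0.863 FPKM (SD, n = 3), at percentile 56.0 of all genes, and without crab 1 it was 0.443 FPKM. Crab 1 was the highest and crab 3 the lowest on each scale, with 1.93, 0.924 and 0.0784 FPKM when scaled to the assigned reads and 1.55, 0.603 and 0.150 FPKM with median-ratio scaling.

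HTR4 was at the limit of detection. It had 0.227, 0 and 0.137 FPKM in crabs 1, 2 and 3, from 3, 0 and 1 reads, and the 0 of crab 2 allows a level of up to 0.170 FPKM at a limit of 3 reads. The intervals of the other libraries were 0.0469 to 0.664 FPKM in crab 1 and 0.00347 to 0.764 FPKM in crab 3. No difference between crabs was detectable at this depth. The mean was 0.121 ± 0.114 FPKM (SD, n = 3), at percentile 37.3 of all genes and 11.5 of the genes with a read. It rests on few reads, with a mean of 0.0685 FPKM without crab 1 and 0.182 FPKM without crab 2.

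**Figure D1:**
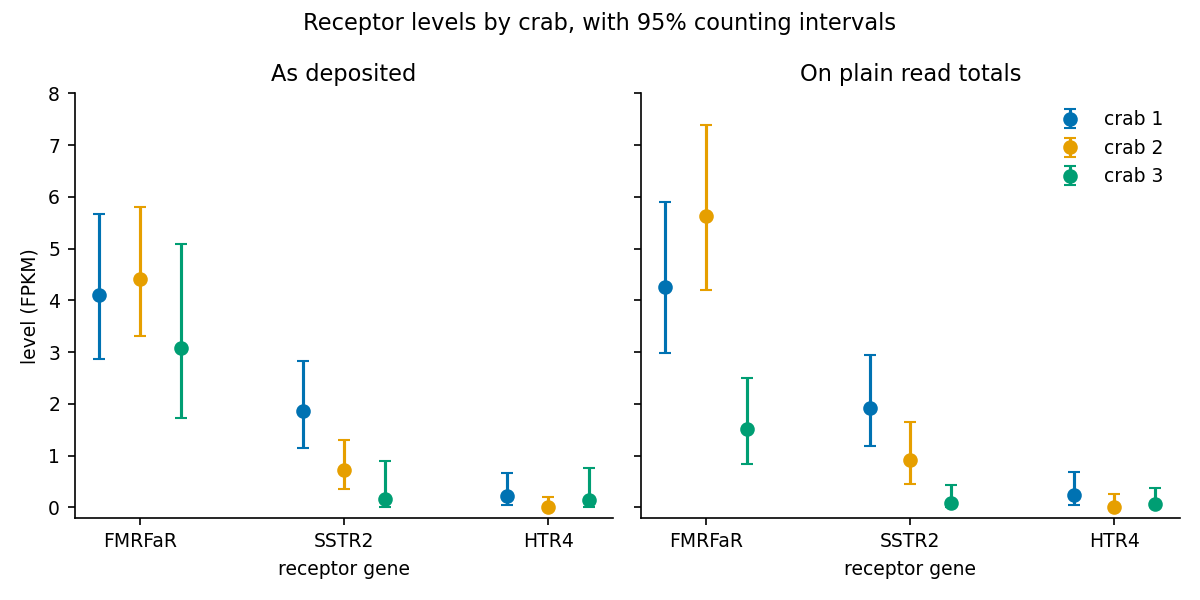
Level of FMRFaR, SSTR2 and HTR4 in FPKM in the RNA library of each crab, as deposited (left) and scaled to the assigned reads (right), with exact Poisson 95% intervals of the reads behind each point. As deposited, FMRFaR lies between 3.09 and 4.42 FPKM, SSTR2 between 0.160 and 1.86 FPKM and HTR4 at or below 0.227 FPKM, and on the right FMRFaR in crab 3 lies at 1.52 FPKM, apart from the other crabs.

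Within each library the order was FMRFaR, SSTR2, HTR4. On the log2(FPKM + 1) scale FMRFaR exceeded HTR4 by 2.11 ± 0.30 (SD, n = 3) and exceeded SSTR2 by 1.44 ± 0.53, in 3 of 3 crabs each. SSTR2 exceeded HTR4 by 0.68 ± 0.60, also in 3 of 3 crabs, but the differences were 1.22, 0.79 and 0.03 in crabs 1, 2 and 3. The 1 SSTR2 read and the 1 HTR4 read of crab 3 do not set the genes apart in that crab. An exact two-sided sign-flip permutation test gave p = 0.25 for each of the 3 pairs, and 0.25 after Benjamini-Hochberg adjustment, the smallest value that 3 libraries can give. With a pseudocount of 0.1 in place of 1 these differences were 4.31, 2.39 and 1.92. In a bulk muscle sample, fewer cells that express a receptor and less RNA in each of them cannot be told apart.

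A level of at least 1 FPKM in all 3 libraries was met by 32.7% of all genes (9366 of 28671), and by FMRFaR alone of the 3. The study lists 7 further candidates with identifiers, and 4 of them met it. Ordered by mean FPKM over these 10 genes, FMRFaR ranked 5, SSTR2 7 and HTR4 9. Above FMRFaR stood moody, in Drosophila a receptor of the glia that form the blood-brain barrier, with 16.7 FPKM, mth2, of the methuselah receptor family, with 11.2 FPKM, a rhodopsin-like gene with 8.22 FPKM, and sky, in Drosophila a regulator of small GTPases, with 5.15 ± 0.537 FPKM (SD, n = 3). SSTR2 stood between gpr161, in mammals an orphan receptor of the primary cilium, with 1.21 FPKM, and Kpna6, in mammals a nuclear import adaptor, with 0.401 FPKM. HTR4 was next to GRM7, in mammals a metabotropic glutamate receptor, with 0.110 FPKM, and the 2 differ by far less than the spread between crabs. FMRFaR and sky differed by more than the SD of either, and SSTR2 and gpr161 by less.

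Chromatin that is open to the Tn5 transposase yields ATAC-seq fragments, and a peak is a stretch where these pile up over the local background. Its fold enrichment is the ratio of pileup to background at the summit. Peaks of the 3 libraries that overlapped by at least 1 base were merged into a region, and every region between 50 kb upstream and 50 kb downstream of each gene is described. Distances run from the TSS to the nearer end of a region. The 3 windows held 28 regions, of which 7 were found in all 3 libraries.

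**Figure D2:**
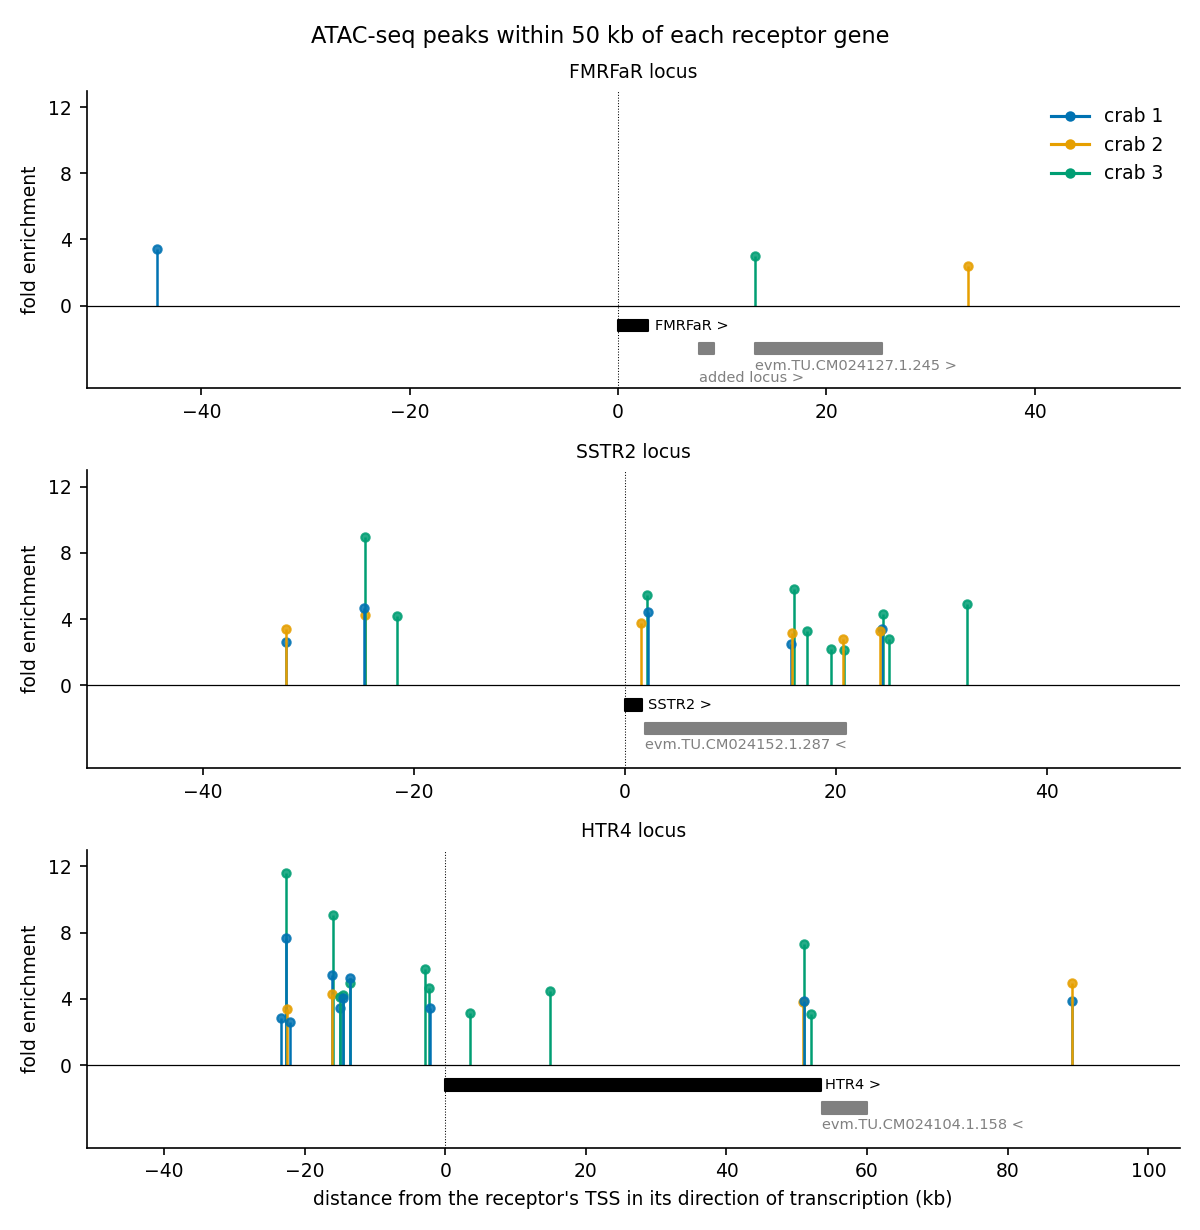
Peaks of each crab within 50 kb of each gene, as stems whose height is the fold enrichment over local background, at their distance from the TSS in kb along the direction of transcription, with the receptor (black) and its neighbours (grey) as bars and their strand as arrowheads. The FMRFaR window holds 1 peak from each crab at separate places, while stems of all 3 crabs stand together at 4 places around SSTR2 and at 3 around HTR4.

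FMRFaR was expressed with no peak in its promoter (the TSS with 2 kb on either side) or in its gene body in any library. Among genes with a mean of at least 1 FPKM, 28.2% (3470 of 12319) had no such peak, and over all genes 55.2% had no promoter peak in any library. The 102.9 kb window held 1 peak from each crab, and no peak of one crab overlapped that of another. Crab 1 had a peak at CM024127.1:6233395-6233598, 44.2 kb upstream, with a fold enrichment of 3.44 and a −log10 q of 4.03. Crab 3 had one at CM024127.1:6290702-6291096, 12.9 kb downstream of the TSS, with a fold enrichment of 3.01 and a −log10 q of 3.38. Crab 2 had one at CM024127.1:6311258-6311542, 33.5 kb downstream, with a fold enrichment of 2.41 and a −log10 q of 1.44, close to the lowest −log10 q listed in any library, 1.30. All 3 were weaker than or level with the median peak of their library, which was 3.44, 3.60 and 3.79 in crabs 1, 2 and 3. The crab 3 peak overlaps the start of the next gene model, which begins at position 6290956.

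The nearest regions shared by all 3 libraries lay outside the FMRFaR window on both sides. The one at CM024127.1:6213934-6214548 was 63.2 kb upstream, with fold enrichments of 4.32, 3.98 and 5.82 in crabs 1, 2 and 3. The one at CM024127.1:6354086-6354689 was 76.3 kb downstream of the TSS, with 3.04, 4.04 and 2.90. FMRFaR was thus one of the 19.0% of genes (5216 of 27394 with complete windows) that had no shared region within 50 kb, and 16.4% of genes had a nearest shared region at least as far from the TSS.

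SSTR2 had a peak overlapping its promoter in all 3 libraries, as did 23.0% of all genes (6597 of 28671). The region spans CM024152.1:8659208-8660819, and its near end lies 1.29 kb downstream of the TSS. Its fold enrichment was 4.40, 3.78 and 5.44 in crabs 1, 2 and 3, a mean of 4.54 ± 0.842 (SD, n = 3). Because the gene is only 1610 bases long, this region covers the 3′ end of SSTR2 and not its start. SSTR2 had 0 peaks within 1 kb of its TSS in each library, and this held for 9.93% (655) of those 6597 genes.

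The peak at the 3′ end of SSTR2 was broad in 2 of the 3 crabs. It was 1460, 373 and 1612 bases wide in crabs 1, 2 and 3, with 4, 1 and 3 summits. Of the peaks of the same library, 1.77%, 40.4% and 1.01% were at least as wide. The strongest summits lay at positions 8660331, 8660515 and 8660327, and the stretch common to all 3 libraries, 8660393 to 8660674, is 282 bases long with 178 of them inside SSTR2. The rest lies in the 311 bases between SSTR2 and the convergent gene evm.TU.CM024152.1.287, which ends at position 8660185, so that the broad peaks reach into both genes.

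SSTR2 had 3 further shared regions in its 101.6 kb window. The strongest, at CM024152.1:8686396-8687051, was 24.3 kb upstream, with fold enrichments of 4.66, 4.28 and 8.97 in crabs 1, 2 and 3 (mean 5.97 ± 2.60, SD, n = 3), and 4.998% of the peaks of crab 3 were at least as enriched. Downstream, CM024152.1:8645663-8646515 lay 15.6 kb from the TSS, with 2.49, 3.17 and 5.80. The region CM024152.1:8637324-8637995 lay 24.1 kb downstream, with 3.41, 3.30 and 4.32. Both downstream regions bracket the start of evm.TU.CM024152.1.287 at position 8641145, the convergent gene. That start carries a region of its own, CM024152.1:8641172-8641588, in crabs 2 and 3 with fold enrichments of 2.78 and 2.14.

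The remaining 6 regions of the SSTR2 window were called in 1 or 2 libraries, most of them in crab 3 alone. Crab 3 alone had the regions 32.3, 24.9, 19.5 and 17.1 kb downstream and 21.4 kb upstream, with fold enrichments of 4.94, 2.79, 2.20, 3.26 and 4.19. Crabs 1 and 2 shared a region 32.0 kb upstream, CM024152.1:8694068-8694334, with 2.63 and 3.38. The window held 5, 6 and 10 peaks in crabs 1, 2 and 3, and without crab 3 it would hold 6 regions in place of 11. By place, 3 of the 11 regions were upstream, 1 overlapped the gene and 7 were downstream.

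HTR4 had no peak in its 2 kb promoter in any library, but most of its regions were upstream of it. Of the 14 regions in its 153.5 kb window, 9 were upstream, 4 inside the gene and 1 downstream. The nearest upstream region, CM024104.1:6321648-6321937, lay 2.10 kb from the TSS, just outside the promoter, with fold enrichments of 3.44 and 4.68 in crabs 1 and 3. Crab 3 had a further peak 2.68 kb upstream, at CM024104.1:6320943-6321356, with a fold enrichment of 5.79. With a promoter of 3 kb on either side, HTR4 has a promoter peak in 2 libraries.

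The upstream regions of HTR4 formed a group between 13.4 and 23.3 kb from the TSS that held 2 of its 3 shared regions. The stronger, CM024104.1:6301062-6301786, was 22.3 kb upstream with fold enrichments of 7.70, 3.38 and 11.6 in crabs 1, 2 and 3 (mean 7.56 ± 4.11, SD, n = 3). Of the peaks of the same library, 5.08%, 58.1% and 1.87% were at least as enriched, so that it was a strong peak in crabs 1 and 3 and an ordinary one in crab 2. The nearer one, CM024104.1:6307783-6308339, was 15.7 kb upstream with 5.47, 4.28 and 9.05 (mean 6.27 ± 2.48, SD, n = 3). Next to it, at 14.8, 14.4 and 13.4 kb upstream, came 3 regions that crabs 1 and 3 shared and crab 2 lacked. Their fold enrichments were 3.44, 4.05 and 5.27 in crab 1 and 4.09, 4.25 and 4.94 in crab 3. The group also held a pair of regions called in crab 1 alone, 23.3 and 22.0 kb upstream, with 2.84 and 2.63.

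The last shared region of HTR4 lay inside the gene, 50.7 kb downstream of the TSS and 2.20 kb before the 3′ end. It spans CM024104.1:6374693-6375306 and had fold enrichments of 3.85, 3.83 and 7.30 in crabs 1, 2 and 3 (mean 4.99 ± 2.00, SD, n = 3). Crab 3 alone had 3 more regions inside the gene, 3.35, 14.7 and 51.8 kb from the TSS, with 3.12, 4.46 and 3.06. Beyond the gene, crabs 1 and 2 shared CM024104.1:6413007-6413276, 89.0 kb from the TSS, with 3.85 and 4.96. The window held 10, 4 and 11 peaks in crabs 1, 2 and 3, and the sparse list of crab 2 limits what can be shared, since crabs 1 and 3 had 7 regions in common, of which crab 2 also had 3.

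In all 7 shared regions the fold enrichment was highest in crab 3. Over all regions found in the 3 libraries, crab 3 was the highest in 51.0% (13973 of 27373), and the median fold enrichment of such regions was 4.25, 4.11 and 4.72 in crabs 1, 2 and 3. The RNA level of SSTR2 was lowest in crab 3 on each scale, where it rests on 1 read. HTR4 had both its lowest RNA value, from 0 reads, and the lowest fold enrichment of its 3 shared regions in crab 2. Its highest RNA value was in crab 1, from 3 reads. The part of the crab 3 library as a whole in these values was not tested.

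**Figure D3:**
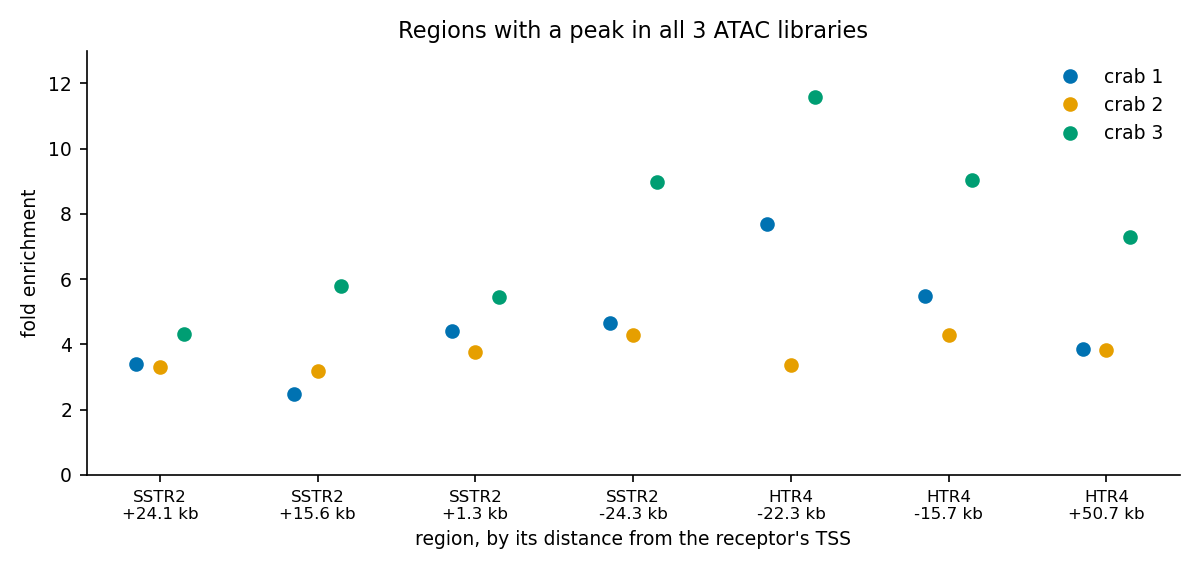
Fold enrichment over local background of each of the 7 regions called in all 3 ATAC libraries near SSTR2 and HTR4, with 1 point per crab. Crab 3 is the highest point in every region, and the widest spread is in the HTR4 region 22.3 kb upstream, with 7.70, 3.38 and 11.6 in crabs 1, 2 and 3.

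Set against windows of the same construction around the 27394 genes, FMRFaR was in a sparse stretch and SSTR2 and HTR4 were above the median. FMRFaR had 2.91 regions per 100 kb, and 16.3% of genes had as few or fewer. SSTR2 had 10.8 and HTR4 had 9.12 regions per 100 kb, at or above 74.6% and 65.2% of genes. The median over all genes was 6.97, with quartiles of 3.96 and 10.9, so that SSTR2 lay just under the upper quartile. Of regions shared by all 3 libraries, SSTR2 had 3.94 and HTR4 had 1.95 per 100 kb, against a median of 1.90 over all genes with quartiles of 0.885 and 3.45. The distance from the TSS to the nearest shared region was 15.7 kb for HTR4, near the median of 14.8 kb over all genes.

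**Figure D4:**
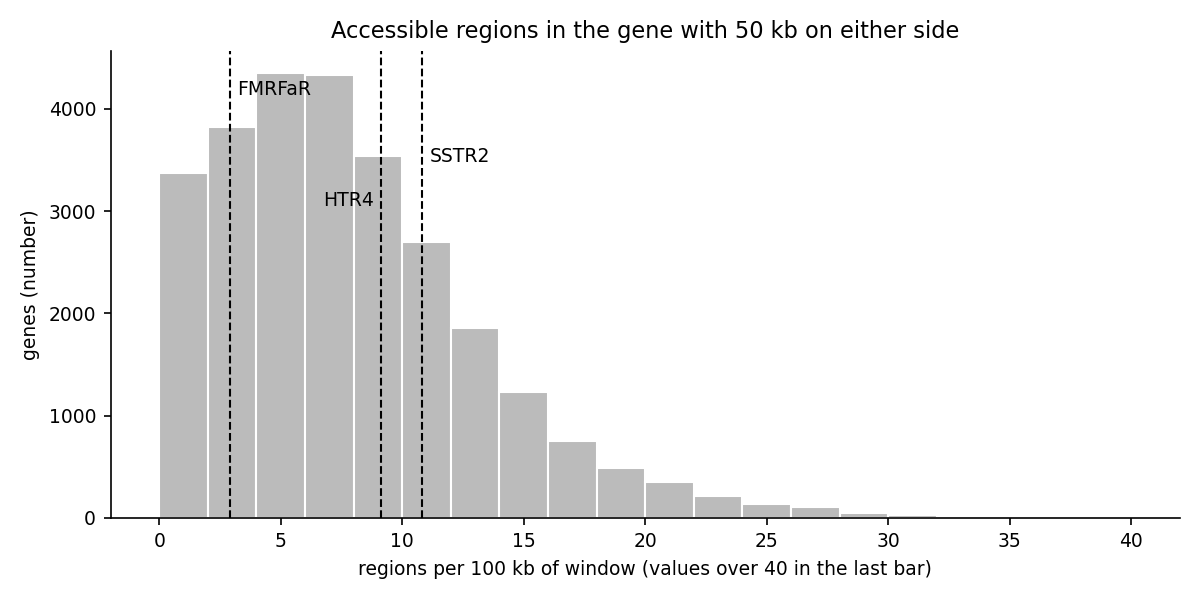
Number of regions per 100 kb in the windows around 27394 genes, as a histogram with values over 40 in the last bar, and the positions of FMRFaR, SSTR2 and HTR4. FMRFaR at 2.91 lies below the lower quartile of 3.96, and HTR4 at 9.12 and SSTR2 at 10.8 lie between the median of 6.97 and the upper quartile of 10.9.

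A shared region at or near the 3′ end was common to SSTR2 and HTR4 but not to FMRFaR. The distance from the 3′ end to the nearest shared region was 0 for SSTR2, where it overlaps the end, as in 3.13% of all genes. It was 2.20 kb for HTR4, and 11.3% of genes had one as near. For FMRFaR it was 66.2 kb, and 84.3% of genes had one as near. This feature was looked for after the positions were seen.

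Each of the 3 genes had few neighbours, and a wide stretch without a listed gene upstream. The gap from the TSS to the nearest listed gene upstream was 190.0 kb for FMRFaR, 330.0 kb for SSTR2 and 77.8 kb for HTR4, against a median of 6.11 kb over all genes. Gaps as wide were found at 3.61%, 1.22% and 11.3% of genes. The windows held 2 neighbours for FMRFaR and 1 each for SSTR2 and HTR4, where the median over all genes was 5. Gene models left out of the table used here were not analysed, so a gap is a distance between listed genes. The identifiers on either side of the FMRFaR and SSTR2 gaps skip a number, while those at the HTR4 gap are consecutive. The gaps of 190.0 and 330.0 kb, and their ranks, may therefore each pass over an unlisted gene model.

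The neighbours of FMRFaR lay downstream on the same strand. An unnamed locus added by the authors, at CM024127.1:6285572-6287010 and 4.86 kb from the 3′ end, had 0.297, 1.55 and 0.536 FPKM in crabs 1, 2 and 3, from 3, 21 and 3 reads. The gene evm.TU.CM024127.1.245, at CM024127.1:6290956-6303098 and 10.2 kb from the 3′ end, had 4.06, 5.51 and 3.67 FPKM from 72, 131 and 36 reads (mean 4.41 ± 0.971, SD, n = 3). That level is close to the 3.87 FPKM of FMRFaR, with crab 2 the highest and crab 3 the lowest in both genes. The order is not particular to this locus, since gpr161, on another sequence, had it too, while mth2 was highest in crab 3. The share of all genes with this order was not determined. Scaled to the assigned reads the neighbour had 4.21, 7.02 and 1.80 FPKM, the same order as FMRFaR. It has a promoter peak in 1 library, the crab 3 peak described above, and the locus between them has none.

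SSTR2 and HTR4 each faced a convergent neighbour at the 3′ end. The gene evm.TU.CM024152.1.287, which starts at position 8641145 and ends 311 bases from SSTR2, had 1.86, 0.398 and 0.963 FPKM in crabs 1, 2 and 3, from 7, 2 and 2 reads, and a promoter peak in 2 libraries. In crab 1 its level and that of SSTR2 both round to 1.86 FPKM, from 7 and 21 reads, and both genes were highest in that crab. The neighbour was lowest in crab 2 as deposited, and in crab 3 when scaled to the assigned reads. SSTR2 was lowest in crab 3 on both scales. The gene evm.TU.CM024104.1.158, at CM024104.1:6377585-6384094 on the minus strand and 77 bases from HTR4, had 0.463, 0.173 and 0 FPKM from 2, 1 and 0 reads, and no promoter peak. HTR4 and this neighbour were thus both near the limit of detection, with 4 and 3 reads in all. No source used here states the strand setting of the read counting, so reads that run past the end of one convergent gene cannot be assigned to a strand.

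The nearest listed genes upstream lie outside the windows. Upstream of SSTR2, evm.TU.CM024152.1.290, at CM024152.1:8992143-8993277, had 7.77, 9.28 and 12.7 FPKM in crabs 1, 2 and 3 (mean 9.90 ± 2.50, SD, n = 3). These values rest on 10, 16 and 9 reads, and their order is opposite to that of SSTR2 as deposited only. Scaled to the assigned reads this gene had 8.07, 11.8 and 6.21 FPKM, with crab 2 the highest and crab 3, as in SSTR2, the lowest. Upstream of HTR4, evm.TU.CM024104.1.156, at CM024104.1:6245313-6246206, had 3.82, 2.97 and 2.30 FPKM (mean 3.03 ± 0.760, SD, n = 3). Upstream of FMRFaR, evm.TU.CM024127.1.242, at CM024127.1:6072856-6087740, had 1, 0 and 0 reads.

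The genes whose levels over the 3 crabs were most like those of FMRFaR and SSTR2 lay on other sequences. Likeness was the Euclidean distance of log2(FPKM + 1) over the 3 crabs, and 3 points can be matched by many unrelated genes. Nearest to FMRFaR was evm.TU.CM024164.1.100 at a distance of 0.05, with 4.06, 4.42 and 3.23 FPKM in crabs 1, 2 and 3. It was followed by evm.TU.CM024099.1.67 at 0.06 and evm.TU.CM024150.1.224 at 0.07. In all, 9 genes lay within 0.1 of FMRFaR and 2 within 0.1 of SSTR2, whose pattern was less common. Nearest to SSTR2 was an unnamed added locus at CM024156.1:10766747-10768227 at 0.07, with 1.82, 0.645 and 0.174 FPKM, followed by evm.TU.CM024159.1.45 at 0.10 and evm.TU.CM024112.1.131 at 0.11. Promoter peaks were present in 1, 3 and 3 libraries for the genes most like FMRFaR, in the order named, where FMRFaR had 0, and in 1, 2 and 3 libraries for those most like SSTR2.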

How the data were processed

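The RNA-seq reads were trimmed with Trimmomatic by the authors, with alignment by HISAT2 2.0.5 and counting by featureCounts 1.5.0-p3, versions that come from the submitters' processing notes. The deposited expression values are FPKM made by the authors, on a library size. The study's methods name mapped fragments as the denominator, but the size behind the crab 3 values was 0.491 times the reads assigned to genes and so is not such a total, and how it was set is unknown here. Each value multiplied by gene length was a whole multiple of 1 step per library, within 1% for 100% of values, and that step gave the reads per gene. No count model was fitted, since there is no second group. After BWA alignment, MACS2 was run by the authors on single ATAC-seq libraries, without pooling. The deposited peak lists give a fold enrichment, which is a ratio, a −log10 p and −log10 q, and a score made from the −log10 q, which was not used further. No source used here states a shift of reads for the transposase. Crab 3's ATAC list was assigned by its sample record, since the number inside its peak names is not 3.

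Peaks with several summits were taken once, with the highest fold enrichment, and positions were counted from 1. Poisson intervals are exact at 95%, and a gene of 1 kb at the limit of 3 reads has 0.427, 0.319 and 0.772 FPKM in crabs 1, 2 and 3. ATAC read totals are unknown here, so peak lists have no depth. The RefSeq gene table (30289 rows) matched 0 identifiers and gave no sequence. The members and lists were chosen with earlier results of these data known. Genes named are the 3 receptors, the other candidates with identifiers in the study, the nearest genes on either side, neighbours with a mean of at least 10 FPKM or a promoter peak in all 3 libraries, and the 3 genes of most like pattern for FMRFaR and SSTR2. The replicates are separate crabs. Alternatives were the library scaling, the pseudocount (0.1), genes with a read only, the window (25 and 100 kb), the promoter (1 and 3 kb), a −log10 q of at least 5, an overlap of 50% and leaving out each crab. Functions were tested on simulated data. Software was matplotlib 3.10.9, pandas 2.3.3, scipy 1.17.1 and numpy 2.4.6 under python 3.11.15.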

Additional observations from a re-analysis of the deposited data

How the results depend on the processing

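No direction between the receptors changed under any alternative run. Without each crab in turn, the differences on the log2(FPKM + 1) scale ranged from 1.25 to 1.74 for FMRFaR minus SSTR2, from 1.95 to 2.25 for FMRFaR minus HTR4 and from 0.41 to 1.00 for SSTR2 minus HTR4, with p = 0.5 in the exact sign-flip test, the smallest value that 2 libraries allow. That test could not pass a threshold under any setting and shows no stability. Of the recomputed values without a test, 69 stayed within the spread between crabs (counts within 1.5 times) and 15 did not. FMRFaR had 0 regions at a −log10 q of at least 5, 1 region within 25 kb and 11 within 100 kb, 2 of them shared. SSTR2 had 19 regions within 100 kb and 6 to 11 when a crab was left out, and 0 libraries had a peak in its 1 kb promoter. HTR4 had 1 shared region at a −log10 q of at least 5, 5 within 100 kb and 3 to 7 shared by the other crabs when 1 was left out, and 2 libraries had a peak in its 3 kb promoter. Among genes with a read, the percentiles were 64.95 for FMRFaR, 37.8 for SSTR2 and 11.5 for HTR4. No paired analysis was possible because RNA and ATAC libraries, which share crab numbers, measure different quantities. The receptor differences were taken within each crab. HTR4, with 4 reads in all, is limited by depth.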
